A study of Mus musculus with 8 samples.

Results

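The genes described here encode the proteins that license origins of DNA replication, fire them and carry the replication fork. They were compared in mouse acute myeloid leukaemia (AML) cell lines on 8 Affymetrix expression arrays, of which 4 carry the label Trib1 hi and 4 the label Trib1 null. The list holds 44 genes. Of these, 43 had a probe set, the group of short probes that reads 1 transcript, annotated with exactly 1 gene symbol, among 17097 genes with such a probe set in all. Orc3, a subunit of the origin recognition complex, had only 5 probe sets shared with Akirin2 and has no value here. Each gene was read through its brightest probe set, chosen by the mean over the 8 arrays. No rule on its values put a gene on the list, but the list was chosen with earlier results of these data known.

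The arrays labelled Trib1 hi came from AML cells expressing Hoxa9 and Trib1, and those labelled Trib1 null from AML cells expressing Hoxa9. Hoxa9 encodes a homeobox protein whose overexpression drives myeloid leukaemia. Trib1 encodes a pseudokinase that directs C/EBP alpha, a factor of myeloid differentiation, to degradation. Both groups were grown in IMDM with 10% serum and 5 ng/ml of the cytokine IL-3, had no other treatment, and came from leukaemia that developed in a homozygous Trib1 knock-out. The labels do not say how Trib1 was introduced, or whether replicate arrays stand for separate cultures, animals or clones. A p-value here therefore weighs a difference only against the spread of these arrays, and that spread may be technical. A difference between the groups may also be a difference between cell lines, and the 2 cannot be told apart with these arrays.

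Before S phase, the origin recognition complex, CDC6 and CDT1 load the MCM2-7 helicase onto DNA as an inactive ring, which is called licensing, and geminin blocks CDT1 once S phase has begun. The kinase CDC7 with its activator DBF4, together with CDC45 and the GINS complex, turns the ring into the active helicase, the CMG. Behind it DNA polymerases copy the strands, held by the PCNA clamp that the RFC complex loads, while RPA coats single-stranded DNA and FEN1 and LIG1 finish the Okazaki fragments of the lagging strand. Most of these genes are raised in proliferating cells under control of E2F transcription factors, and AML lines divide continuously.

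The deposited values are linear intensities scaled per array, with trimmed means of 500.1 to 500.2 on all 8 arrays. The gene that names the groups reads against its label. Trib1 had an intensity of 35.5 ± 57.6 and 236 ± 46.0 (SD, n = 4) on the arrays labelled Trib1 hi and Trib1 null, and Hoxa9 107 ± 189 and 1024 ± 43.5, so each group is named below by its label. All 8 Trib1 readings lay below 500, and where the probes lie relative to the knock-out allele was not analysed here. Trib1 hi 3 stood apart, with a median over all probe sets of 68.3 against 4.09 to 4.94 on the other 3 arrays of its label, and 3.71 to 9.56 on the Trib1 null arrays. Its 99th percentile was 11618, against 16133 to 17006 on those 3. Of 10 markers of myeloid and AML cells, all 10 read over 500 on some array, 8 on all Trib1 hi arrays and 7 on all Trib1 null arrays. No measured B-cell (4), T-cell (4), erythroid (3) or fibroblast (5) marker reached 500 on any array, and of 5 endothelial markers only Pecam1 did. Of 5 mast-cell and basophil markers Cpa3 and Mcpt8 did, in opposite directions, with Cpa3 at 23607 ± 4093 and 1385 ± 22.4 and Mcpt8 at 2872 ± 219.8 and 4980.4 ± 321 (SD, n = 4) on the Trib1 hi and Trib1 null arrays. The sum over that list, carried by Cpa3 on the Trib1 hi arrays, was 20277 to 29362 on the Trib1 hi arrays and 5933 to 6591 on the Trib1 null arrays. Mpo, a primary granule gene of myeloid progenitors, read 5201 ± 755 and 2.92 ± 0.79. Directions differed within the myeloid list. Also higher on the Trib1 hi arrays were Cd34 (means 3429 and 25.1), Elane (4452 and 802), Cebpa (7291 and 4002) and Kit (380 and 77.3). Itgam (1660 and 5122) and Spi1 (567 and 970) were lower, and Ptprc, Fcgr3 and Csf2rb overlapped between the groups. The groups thus also differed in myeloid genes, and the part of this in the results below was not tested. In RNA from whole cultures, fewer cells of a type and less RNA per cell cannot be told apart.

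Of the 43 replication genes, 16 were higher and 3 lower on the arrays labelled Trib1 hi than on those labelled Trib1 null. The test was limma on log2(intensity + 2.71) with Benjamini-Hochberg adjustment over 12250 genes and a threshold of 0.05, and the other 24 genes did not pass it. Over all genes tested, 11.1% passed as higher and 19.7% as lower. The median log2 difference, Trib1 hi minus Trib1 null, was 0.12 over the replication genes and 0.04 over all genes tested, and 32 of the 43 lay above 0. The groups did not overlap in 18 genes that were higher and 2 that were lower, where 13.5% and 15.8% of all genes were so separated. The test was repeated on genes over 500 in at least 1 group. There 18 of 40 were higher and 3 lower, beside 25.2% and 35.6% of all such genes.

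Quantile normalization, which gives every array the same distribution of values, called 29 of the 43 higher and 3 lower, beside 27.4% and 27.3% of all genes. All 19 genes called on the deposited values kept their call and direction under it. Leaving out Trib1 hi 3 gave 23 higher and 4 lower, beside 17.2% and 30.8% of all genes, and the median over all genes then moved to -0.32 while that of the replication genes was 0.25. Dividing each array by its median instead moved all genes down, to a median of -0.81, and the replication genes to -0.74. These medians, all far below 500, were 68.3 on Trib1 hi 3 and 3.71 to 9.56 on the other arrays, so Trib1 hi 3 was divided by the most. Under that scaling 15 of the 16 higher genes lay below 0 and above the median of all genes, 0 of the 43 were called higher and 1, the dim Gins3, was called lower. Directions below are those of the deposited scaling, relative to an all-gene median of 0.04. In the 20 settings other than equal medians, 9 genes were higher every time, namely Cdc6, Cdt1, Mcm2, Cdc45, Gins1, Rfc4, Rfc5, Rpa2 and Tipin, and 1, Lig1, was lower every time. The share of all genes so called is not given here, and the settings are refits of the same arrays.

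**Figure D1:**
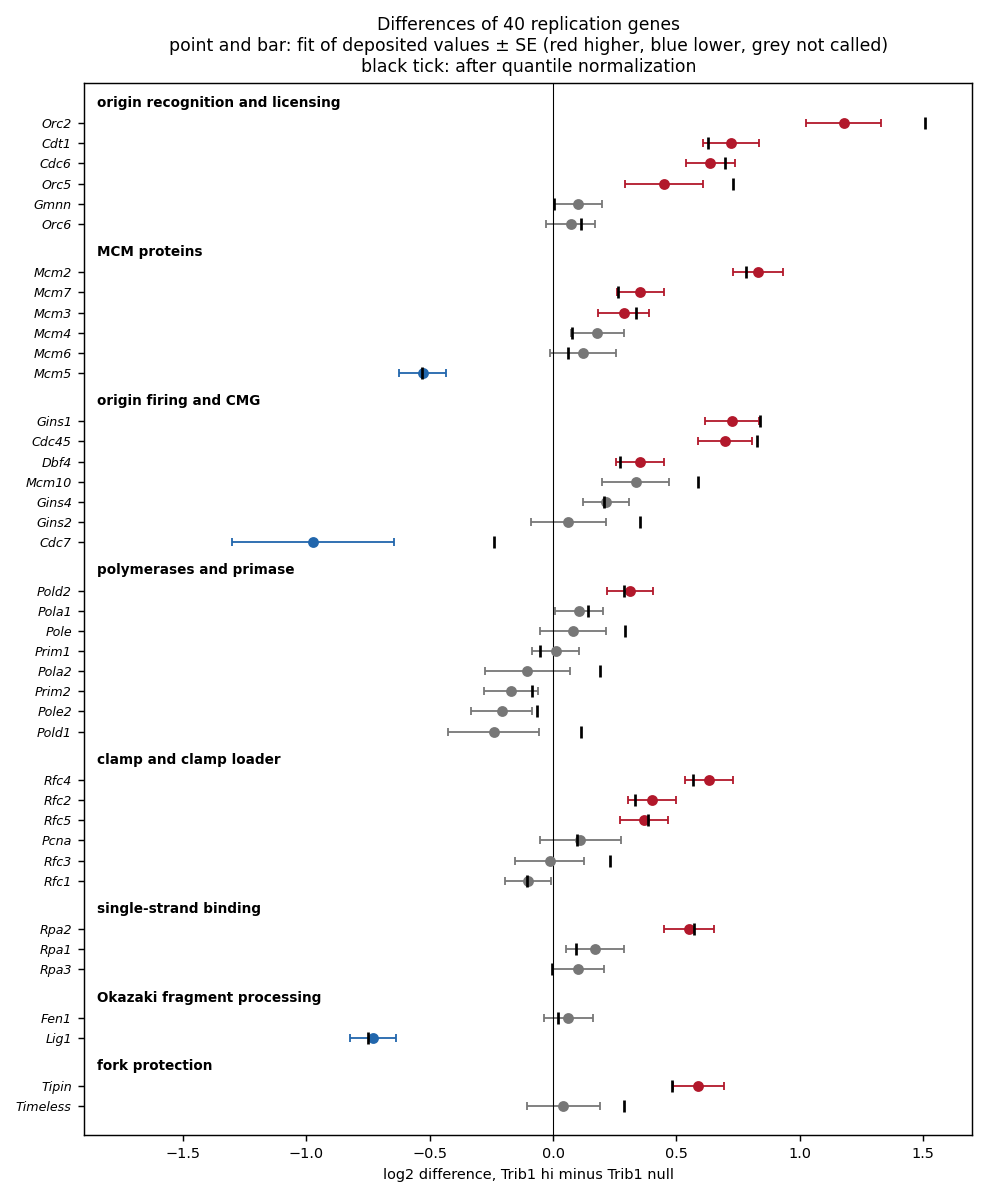
Log2 difference (Trib1 hi minus Trib1 null, x axis) of 40 replication genes by role, as points with bars of ± SE from the fit of the deposited values (n = 4 arrays per group), with black ticks for the value after quantile normalization. Orc1, Mcm8 and Gins3, which read below 500 in both groups, are not drawn. Mcm2, Cdc6, Cdt1, Cdc45 and Gins1 stand to the right in both fits and Mcm5 and Lig1 to the left, and with arrays divided by their medians Mcm2, Cdc6, Cdt1, Cdc45 and Gins1 turn below 0.

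Licensing genes rose in part. Of the 7 measured genes of origin recognition and licensing, 4 were higher (Orc2, Orc5, Cdc6 and Cdt1) and 0 lower on the arrays labelled Trib1 hi, beside 11.1% higher and 19.7% lower of all genes. After quantile normalization 6 were higher and 0 lower, beside 27.4% and 27.3%. Each of the 4 turned below 0 with arrays divided by their medians, except Orc2. Orc2 read 1229, 1137, 1441 and 1477 on Trib1 hi 1 to 4, against 737, 469, 552 and 588 on Trib1 null 1 to 4. Orc2, a core subunit of the complex that marks origins, thus read higher on every Trib1 hi array than on any Trib1 null array. Its signal was at least 2.23-fold higher, with a log2 difference of 1.18 ± 0.15 (SE) and an adjusted p of 1.5e-07 in limma. A second Orc2 probe set averaged 1236 ± 63.2 and 619 ± 51.5 (SD, n = 4) on the Trib1 hi and Trib1 null arrays, and another, dim one 128 ± 212 and 111 ± 79.3. Averaging all 3 probe sets ended the call. Both loading factors, Cdc6 and Cdt1, rose. Cdc6 read 2118, 2134, 1918 and 2109.5 on Trib1 hi 1 to 4, against 1267, 1329, 1362 and 1356 on Trib1 null 1 to 4. Cdt1 read 11715, 11323, 8205 and 11282 on Trib1 hi 1 to 4, against 5762, 6676, 6547 and 6601 on Trib1 null 1 to 4. Neither gene overlapped between the groups, and Trib1 hi 3 was the lowest Trib1 hi array for both. Cdc6 was 1.56-fold higher (log2 difference 0.64 ± 0.10, adjusted p = 4.0e-06 in limma) and Cdt1 1.65-fold higher (0.72 ± 0.11, 6.1e-06).

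Orc5 read 1025, 763, 1217 and 1181 on Trib1 hi 1 to 4, against 757, 617, 739 and 937 on Trib1 null 1 to 4. Orc5, another subunit of the complex, overlapped between the groups, its lowest Trib1 hi array lying below the highest Trib1 null array. It passed the test (adjusted p = 0.029 in limma) but lost the call when Trib1 hi 1, Trib1 hi 3, Trib1 hi 4 or Trib1 null 2 was left out, with an adjusted p of up to 0.13. Orc6 read 1670.3, 1668, 1663 and 1713 on Trib1 hi 1 to 4, against 1582, 1557, 1654 and 1601 on Trib1 null 1 to 4. Orc6, the smallest subunit, was higher on all 4 Trib1 hi arrays, but only by 0.07 ± 0.10 on the log2 scale, which did not pass (adjusted p = 0.68 in limma). Gmnn, which encodes the CDT1 inhibitor geminin, averaged 4663 ± 565 and 4327 ± 176 (SD, n = 4) on the Trib1 hi and Trib1 null arrays. The interval of its log2 difference was -0.10 to 0.30 (95%), and it did not pass with all arrays. Trib1 hi 1, 2 and 4 read 4894 to 5040.4, above every Trib1 null array, and Trib1 hi 3 read 3822, below them all. Without Trib1 hi 3 it passed as higher (0.19, adjusted p = 0.0065 in limma). The added controls bioD and cre, described below, then also read higher, by 0.16 to 0.29. After quantile normalization Gmnn did not pass (0.0019, adjusted p = 0.96 in limma). Orc1, the ATPase subunit, read 10.3, 9.96, 264 and 8.67 on Trib1 hi 1 to 4, against 139, 6.29, 5.96 and 5.50 on Trib1 null 1 to 4. It was dim everywhere and highest on Trib1 hi 3 and Trib1 null 1, the pair of arrays with the highest medians, and no fold is given.

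The MCM genes did not move as a unit. Of the 7 genes, Mcm2, Mcm3 and Mcm7 were higher, Mcm5 was lower, and Mcm4, Mcm6 and Mcm8 did not pass the test on the arrays labelled Trib1 hi, although the products of Mcm2 to Mcm7 sit in 1 ring in equal number. Of all genes 11.1% were higher and 19.7% lower, and after quantile normalization 5 of the 7 were higher and 1 lower, beside 27.4% and 27.3%. With arrays divided by their medians the 3 higher genes turned below 0 and Mcm5 stayed below them. Mcm2 read 3756, 3775, 3292 and 4382 on Trib1 hi 1 to 4, against 2441, 2245, 1909 and 1947 on Trib1 null 1 to 4. Mcm5 read 1671, 1765, 1643 and 1678 on Trib1 hi 1 to 4, against 2242, 2601, 2470.1 and 2453 on Trib1 null 1 to 4. Mcm2 was higher on every Trib1 hi array, and Mcm5 was lower on every one. Mcm2 was 1.78-fold higher (log2 difference 0.83 ± 0.10, adjusted p = 5.6e-08 in limma) and Mcm5 1.44-fold lower (-0.53 ± 0.09, 3.3e-05). Leaving out each array in turn kept both calls, with adjusted p of 5.2e-11 to 1.4e-04 for Mcm2 and 2.1e-05 to 2.4e-04 for Mcm5. A second probe set of Mcm2 averaged 2212 ± 208 and 1402 ± 75.5 (SD, n = 4) on the Trib1 hi and Trib1 null arrays. The only other probe set of Mcm5 was at 12.3 ± 17.8 and 4.89 ± 3.32, near the bottom of the scale, and averaging it in ended the Mcm5 call.

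An added control transcript also read lower on the Trib1 hi arrays. The bacterial RNA dap, added to each sample before labelling in the standard Affymetrix protocol, had 4 probe sets over 500 on all arrays, and all 4 read lower on the Trib1 hi arrays without overlap. Their log2 differences were -0.68 to -0.50, a range that holds the -0.53 of Mcm5. The added controls bioD and cre, mixed in before hybridization and read by 4 probe sets each, differed by 0.01 to 0.16, and 3 of bioC by -0.34 to 0.20. The part of what lowered dap in the Mcm5 value was not tested.

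Mcm3 read 1949, 1739, 1576 and 1866 on Trib1 hi 1 to 4, against 1472, 1549.8, 1431 and 1377 on Trib1 null 1 to 4. Mcm7 read 5175, 5209, 3991 and 4797 on Trib1 hi 1 to 4, against 3589, 3677, 3857 and 3794 on Trib1 null 1 to 4. Both genes were higher on all 4 Trib1 hi arrays, with the smallest margin on Trib1 hi 3. Mcm3 was 1.22-fold higher (log2 difference 0.29 ± 0.10) and its call was weak, with an adjusted p of 0.033 in limma that rose above 0.05, so that the call was lost, without Trib1 hi 1, 2 or 4 or Trib1 null 1, 3 or 4, reaching 0.14. Mcm7 was 1.28-fold higher (0.35 ± 0.10, adjusted p = 0.0043 in limma). Mcm4 read 6512, 6308, 4503 and 5741 on Trib1 hi 1 to 4, against 4540.2, 5215, 5263 and 5189 on Trib1 null 1 to 4. Mcm6 read 14658, 14929, 9843 and 13828 on Trib1 hi 1 to 4, against 10682, 12902, 12349 and 12558 on Trib1 null 1 to 4. In Mcm4 and Mcm6 the other 3 Trib1 hi arrays lay above every Trib1 null array and Trib1 hi 3 lay below all 4. Their log2 differences were 0.18 ± 0.11 and 0.12 ± 0.13 with all arrays (adjusted p = 0.24 and 0.59 in limma), and 0.29 and 0.26 without Trib1 hi 3 (0.0074 and 0.017). With that array left out, the added controls bioD and cre also read higher on the Trib1 hi arrays, by 0.16 to 0.29. Mcm8, which acts with MCM9 in recombination and is no part of the ring, read below 500 on all 8 arrays, with means of 177 and 133.

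A ratio taken within an array does not depend on the scaling of that array. Relative to Mcm5 on the same array, Mcm2 was higher by 1.36 on the log2 scale on the Trib1 hi arrays than on the Trib1 null arrays, Mcm3 by 0.82, Mcm4 by 0.71, Mcm6 by 0.65 and Mcm7 by 0.88. For all 5 the 4 Trib1 hi arrays, Trib1 hi 3 included, lay above the 4 Trib1 null arrays. Mcm5, the divisor in all 5, was itself lower on every Trib1 hi array. The 5 ratios are therefore not independent of that result or of one another. These ratios show unequal change of the subunits' signals and do not say which of them changed.

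**Figure D2:**
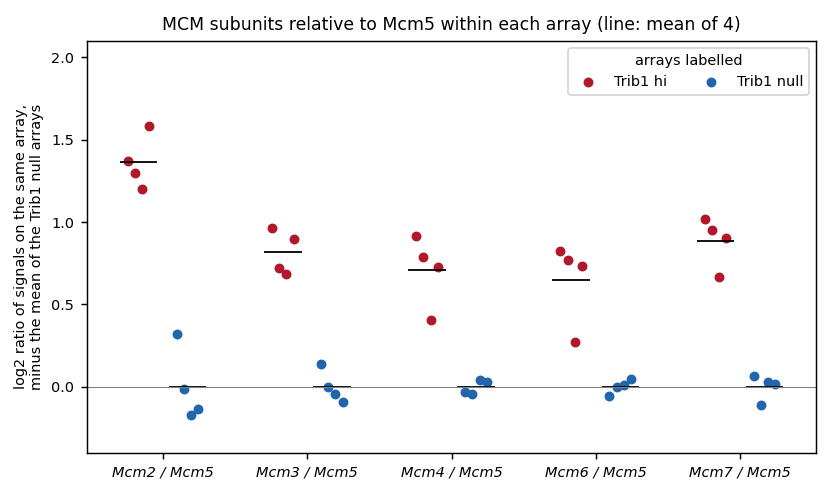
Log2 ratio of each MCM subunit's signal to that of Mcm5 on the same array, minus the mean of the Trib1 null arrays (y axis), for 4 Trib1 hi arrays (red, left) and 4 Trib1 null arrays (blue, right), with lines at group means. All 5 subunits sit higher on the Trib1 hi arrays, from 0.65 for Mcm6 to 1.36 for Mcm2, and the lowest red point of each of the 5 is Trib1 hi 3.

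The promoters of Mcm2 and Mcm5 are shown because these subunits were called in opposite directions. Both are the 250 bases before the RefSeq start of the gene on GRCm38.p6, 5′ to 3′ along the gene's strand, with capitals on E2F motifs (TTTGGCGC, TTTCGCGC or TTTCCCGC), the CCAAT box and the CHR motif TTTGAA, each on either strand.
Mcm2, chr6:88898781-88899030, minus strand: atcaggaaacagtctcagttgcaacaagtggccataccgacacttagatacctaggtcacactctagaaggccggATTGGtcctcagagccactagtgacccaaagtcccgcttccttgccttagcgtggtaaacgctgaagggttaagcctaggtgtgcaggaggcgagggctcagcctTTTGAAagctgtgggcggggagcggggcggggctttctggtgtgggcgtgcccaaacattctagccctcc
Mcm5, chr8:75109259-75109508, plus strand: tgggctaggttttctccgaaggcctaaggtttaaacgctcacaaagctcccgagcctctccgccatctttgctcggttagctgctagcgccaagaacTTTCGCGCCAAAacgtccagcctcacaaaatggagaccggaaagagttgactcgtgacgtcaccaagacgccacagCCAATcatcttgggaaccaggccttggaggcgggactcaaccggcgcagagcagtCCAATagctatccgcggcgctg
In Mcm5 the capitals TTTCGCGCCAAA hold overlapping matches on opposite strands, TTTCGCGC from 153 bases before the start and TTTGGCGC on the other strand from 149 bases before it, and CCAAT stands 77 and 22 bases before the start. Mcm2 has no E2F match in its window, 1 CCAAT on the opposite strand 175 bases before the start and TTTGAA 70 bases before it.

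**Figure D3:**
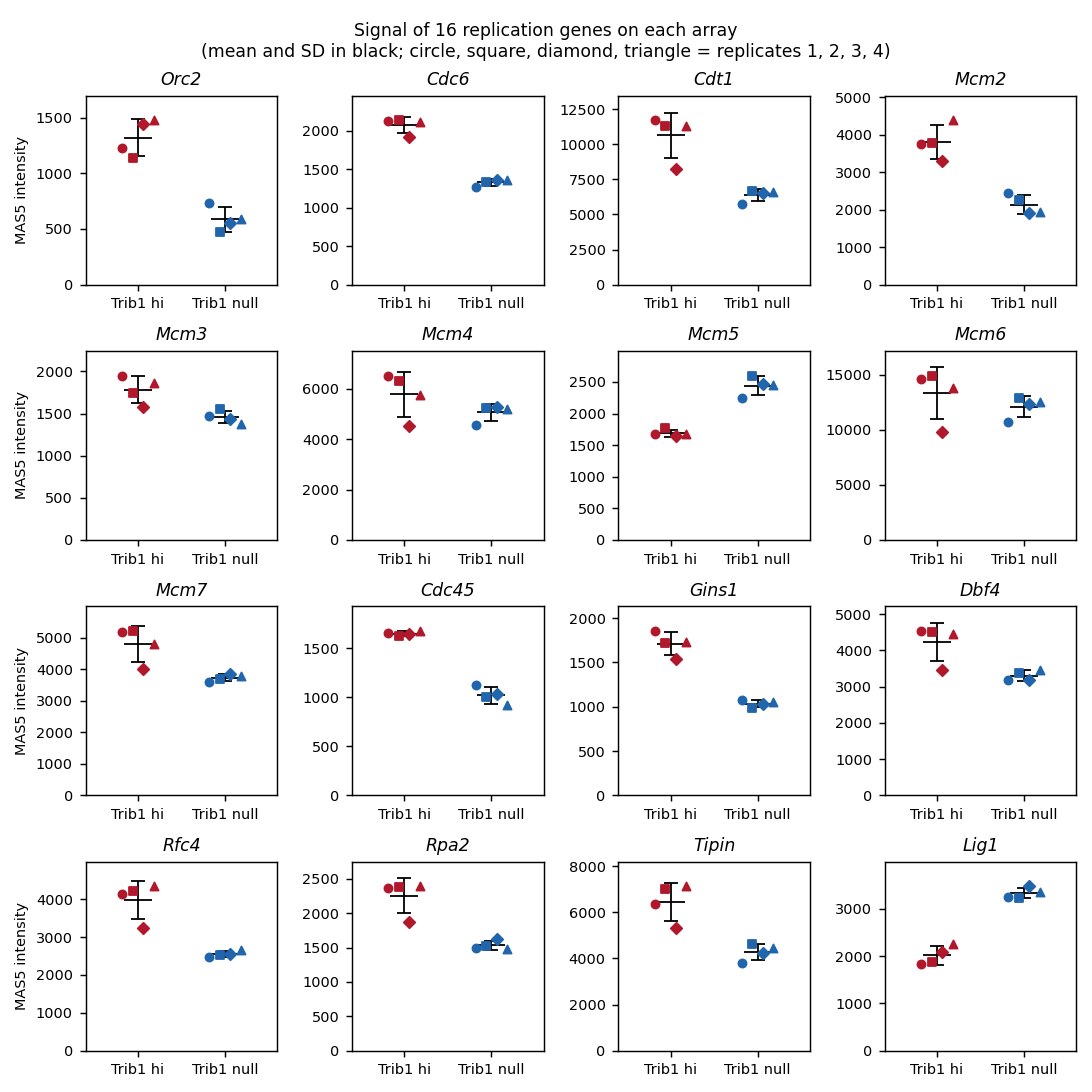
Intensity (y axis, linear, from 0) of 16 replication genes on each of the 4 Trib1 hi arrays (red, left) and 4 Trib1 null arrays (blue, right), with group means and SD in black and marker shapes for replicates 1 to 4. Mcm5 and Lig1 are lower on every Trib1 hi array. The diamond of Trib1 hi 3 is the lowest of its label in Cdt1, Mcm4, Mcm6, Mcm7, Dbf4, Rfc4 and Rpa2.

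Among the 8 genes of origin firing and the CMG, Dbf4, Cdc45 and Gins1 were higher, Cdc7 was lower, and Mcm10, Gins2, Gins3 and Gins4 did not pass on the arrays labelled Trib1 hi. That is 3 higher and 1 lower, beside 11.1% and 19.7% of all genes, and after quantile normalization 6 were higher and 1 lower, beside 27.4% and 27.3%. The 3 higher genes turned below 0 with arrays divided by their medians. Cdc45 read 1656, 1624, 1648 and 1678 on Trib1 hi 1 to 4, against 1125, 999, 1036 and 923 on Trib1 null 1 to 4. Gins1 read 1854, 1724, 1542 and 1734 on Trib1 hi 1 to 4, against 1071, 985, 1025 and 1054 on Trib1 null 1 to 4. Cdc45 was close to constant on the Trib1 hi arrays, with an SD of 22.1, and both genes stood clear of the Trib1 null range. Cdc45, the helicase cofactor, was 1.62-fold higher (log2 difference 0.70 ± 0.11, adjusted p = 5.5e-06 in limma). Gins1, which encodes the GINS subunit PSF1, was 1.65-fold higher (0.72 ± 0.11, 2.4e-06). The other GINS subunits did not pass on the deposited values. Gins4 read 2419.7, 2419, 2151 and 2416 on Trib1 hi 1 to 4, against 1887, 2075, 2033 and 2106 on Trib1 null 1 to 4. Gins4 was higher on each Trib1 hi array, by 0.21 ± 0.09 on the log2 scale, and missed the threshold (adjusted p = 0.083 in limma). It passed after quantile normalization (0.21, adjusted p = 8.1e-04 in limma), without Trib1 hi 3 (0.0027) and with a floor of 500 (0.026). The added controls bioD and cre also read higher on the Trib1 hi arrays without Trib1 hi 3. Gins2 averaged 872 ± 166 and 826 ± 60.0 (SD, n = 4) on the Trib1 hi and Trib1 null arrays, with overlap and an interval of the log2 difference of -0.25 to 0.37, and after quantile normalization it passed as higher (0.35, adjusted p = 0.0040 in limma). Gins3 read 15.8, 12.3, 388 and 10.6 on Trib1 hi 1 to 4, against 396, 225, 249.6 and 229 on Trib1 null 1 to 4, all below 500 and highest on Trib1 hi 3 and Trib1 null 1, so no fold is given.

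The kinase and its activator were called in opposite directions. Dbf4 read 4533, 4505, 3453 and 4446 on Trib1 hi 1 to 4, against 3169, 3388, 3187 and 3463 on Trib1 null 1 to 4. Cdc7 read 217, 149, 614 and 310.4 on Trib1 hi 1 to 4, against 613, 512, 537 and 556 on Trib1 null 1 to 4. Dbf4 read above all Trib1 null arrays on 3 Trib1 hi arrays, and on Trib1 hi 3 just below the highest Trib1 null array. Dbf4 was 1.28-fold higher (log2 difference 0.35 ± 0.10, adjusted p = 0.0051 in limma). Cdc7 lay below 500 on 3 Trib1 hi arrays, and on Trib1 hi 3 stood level with the highest Trib1 null array, so its fold of at least 1.05-fold lower is a bound near 1. Its call (log2 difference -0.97 ± 0.33, adjusted p = 0.022 in limma) was lost without Trib1 hi 1 or Trib1 hi 2 and with a floor of 500, and the difference shrank to -0.24 after quantile normalization. Mcm10 read 984, 920.3, 1164 and 1068 on Trib1 hi 1 to 4, against 848, 825, 737 and 860.4 on Trib1 null 1 to 4. Mcm10, which helps activate the CMG, did not overlap between the groups, with a log2 difference of 0.33 ± 0.14 and an adjusted p of 0.060 in limma, over the threshold. After quantile normalization its log2 difference was 0.59 and it passed (1.7e-05).

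Of 8 genes of the polymerases and primase, 1 was higher and 0 lower on the arrays labelled Trib1 hi, beside 11.1% and 19.7% of all genes, so the share that was higher was near that of all genes. After quantile normalization 3 were higher (Pold2, Pola1 and Pole) and 0 lower, beside 27.4% and 27.3%. On the deposited values the median log2 difference of the 8 was -0.05, beside 0.04 over all genes. Pold2 read 2653, 2672, 2271 and 2703 on Trib1 hi 1 to 4, against 2028, 2180.2, 2117 and 1953 on Trib1 null 1 to 4. Pold2, the regulatory subunit of polymerase delta, was higher on each Trib1 hi array by 1.24-fold (log2 difference 0.31 ± 0.09, adjusted p = 0.010 in limma), and the value was -0.55 with arrays divided by their medians. The call ended without Trib1 null 4. The catalytic subunit Pold1 averaged 682 ± 211 and 783 ± 90.1 (SD, n = 4) on the Trib1 hi and Trib1 null arrays, with an interval of the log2 difference of -0.62 to 0.14, and did not pass. Pola1 read 1826, 1709.8, 1708 and 1827 on Trib1 hi 1 to 4, against 1587, 1682, 1626 and 1672 on Trib1 null 1 to 4. Pola1, the catalytic subunit of the polymerase alpha-primase complex that starts each fragment, was higher on every Trib1 hi array by only 0.11 ± 0.10 and did not pass on the deposited values (adjusted p = 0.50 in limma). Its partners Pola2, Prim1 and Prim2 had log2 differences of -0.10, 0.01 and -0.17. The leading-strand polymerase genes Pole and Pole2 had 0.08 and -0.21. The intervals of these 5 genes, from the brightest probe set of each, all held 0, the widest being -0.45 to 0.25 for Pola2. A second Prim2 probe set averaged 915 ± 88.3 and 1225 ± 82.5 (SD, n = 4) on the Trib1 hi and Trib1 null arrays. Its groups did not overlap, and it was 1.34-fold lower on the Trib1 hi arrays (log2 ratio -0.42), which was not tested. Another, dim Prim2 probe set averaged 30.4 ± 50.7 and 16.1 ± 21.7.

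The clamp loader rose in part. Of Pcna and the 5 Rfc genes, Rfc2, Rfc4 and Rfc5 were higher and none lower on the arrays labelled Trib1 hi, beside 11.1% and 19.7% of all genes. After quantile normalization 5 of the 6 were higher and 0 lower, beside 27.4% and 27.3%, although the 3 genes called on the deposited values turned below 0 with arrays divided by their medians. Rfc4 read 4132, 4206, 3238 and 4335 on Trib1 hi 1 to 4, against 2468, 2514, 2556 and 2654 on Trib1 null 1 to 4. Rfc2 read 3981, 4201, 3047 and 3771 on Trib1 hi 1 to 4, against 2711, 2966, 2811 and 2801 on Trib1 null 1 to 4. Rfc5 read 2188, 2213, 2064 and 2358 on Trib1 hi 1 to 4, against 1583, 1677, 1790.1 and 1785 on Trib1 null 1 to 4. None of these 3 genes overlapped between the groups. Rfc4 was 1.55-fold higher (log2 difference 0.63 ± 0.10, adjusted p = 3.2e-06 in limma), Rfc2 1.32-fold higher (0.40 ± 0.10, 0.0016) and Rfc5 1.29-fold higher (0.37 ± 0.10, 0.0029). With the 3 probe sets of Rfc2 averaged, of which the others were dim, Rfc2 read -0.35 and was not called. Rfc1, the large subunit, had a log2 difference of -0.10 ± 0.09 and Rfc3 of -0.01 ± 0.14, and neither passed (adjusted p = 0.50 and 0.96 in limma). Pcna, which encodes the clamp itself, averaged 23213 ± 4177 and 21306 ± 2147 (SD, n = 4) on the Trib1 hi and Trib1 null arrays. Its 3 other Trib1 hi arrays lay above every Trib1 null array and Trib1 hi 3, at 17131, below them. The log2 difference was 0.11 ± 0.16 with all arrays and 0.25 without Trib1 hi 3 (adjusted p = 0.71 and 0.045 in limma). Without that array the added controls bioD and cre also read higher on the Trib1 hi arrays, by 0.16 to 0.29.

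Of the 3 subunits of RPA, the middle one passed as higher on the deposited values, beside 11.1% of all genes. After quantile normalization 2 passed as higher, beside 27.4% of all genes. Rpa2 read 2369, 2384, 1871 and 2389 on Trib1 hi 1 to 4, against 1492, 1522, 1621 and 1484 on Trib1 null 1 to 4. Rpa2 was well above the Trib1 null range on all 4 Trib1 hi arrays, by 1.47-fold (log2 difference 0.55 ± 0.10, adjusted p = 5.7e-05 in limma), and was -0.31 with arrays divided by their medians. The large subunit Rpa1 averaged 9046 ± 1427 and 7975 ± 723 and the small one Rpa3 5471 ± 782 and 5062 ± 315 (SD, n = 4) on the Trib1 hi and Trib1 null arrays. Their log2 differences of 0.17 ± 0.12 and 0.10 ± 0.10 did not pass with all arrays and passed, at 0.29 and 0.21, without Trib1 hi 3 (adjusted p = 0.012 and 0.015 in limma). The added controls bioD and cre were then also higher on the Trib1 hi arrays, by 0.16 to 0.29.

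Of the 3 lower genes, Lig1 had the smallest adjusted p. Lig1 read 1842, 1873, 2094 and 2257 on Trib1 hi 1 to 4, against 3259, 3232, 3475 and 3365 on Trib1 null 1 to 4. LIG1 seals the nicks between Okazaki fragments, and its gene read lower on every Trib1 hi array. It was 1.66-fold lower (log2 difference -0.73 ± 0.09, adjusted p = 1.4e-07 in limma), -0.75 after quantile normalization and -0.75 without Trib1 hi 3. It had 1 probe set. The difference lies just beyond the -0.68 to -0.50 of the dap control, whose part in it was not tested. Fen1, the flap endonuclease that acts before the ligase, averaged 2579 ± 317 and 2461 ± 171 (SD, n = 4) on the Trib1 hi and Trib1 null arrays, and its interval of the log2 difference of -0.14 to 0.26 held 0.

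Of the fork protection partners, Tipin passed as higher on the deposited values, beside 11.1% of all genes. Both passed as higher after quantile normalization, beside 27.4% of all genes. Tipin read 6368, 6983, 5312 and 7117 on Trib1 hi 1 to 4, against 3779, 4614, 4247 and 4433 on Trib1 null 1 to 4. Tipin was higher on all 4 Trib1 hi arrays, by a log2 difference of 0.59 ± 0.10 (adjusted p = 2.5e-05 in limma), and was -0.27 with arrays divided by their medians. Timeless, whose product binds TIPIN, averaged 929 ± 176 and 893 ± 91.0 (SD, n = 4) on the Trib1 hi and Trib1 null arrays, and its log2 difference of 0.04 ± 0.15 did not pass. After quantile normalization it was 0.29 (adjusted p = 0.0064 in limma), and 0.022 was the adjusted p with Trib1 hi 3 also left out. Whether the partners differed in their change was not tested.

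The place of Trib1 hi 3 differed with brightness. Of the 20 replication genes with a mean over 2000, Trib1 hi 3 was the lowest array of its label in 19, with a median deviation from its group mean of -0.27 on the log2 scale. Of the 17 genes below 2000 that read over 500 on all 8 arrays, it was the lowest in 7 and the highest in 7. Of the 16 higher genes, 15 were also called without that array, Orc5 being the exception. Other probe sets of the same genes numbered 12 over 500 on all arrays, and all 12 differed in the same direction as the probe set used. Among them were those of Prim1 and Rfc3, whose used probe sets differed by only 0.01 and -0.01, so the shared sign says little there. Dimmer probe sets were not counted, and some differed the other way, such as 1 of Gins2 (-0.25 against 0.06) and 1 of Rfc2 (-2.07 against 0.40). By chromosome, the 43 genes with values were spread over 15, with 9 on chromosome 5 (5 higher and 1 lower) and 6 on chromosome 8 (1 higher, Cdt1, and 1 lower, Mcm5). Of all genes tested, on any chromosome, 11.1% were higher and 19.7% lower.

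**Figure D4:**
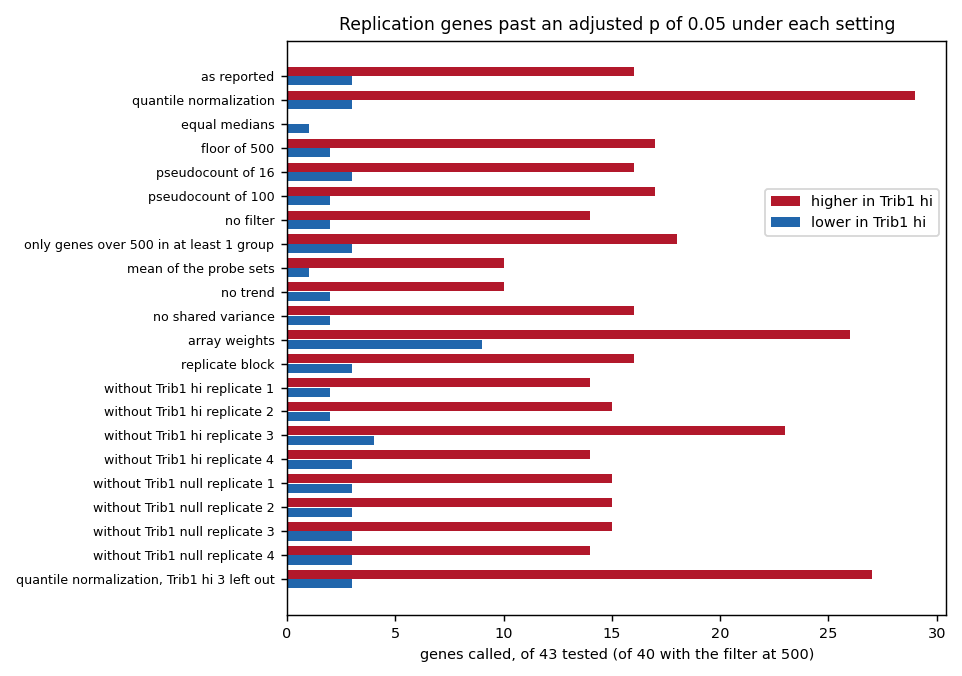
Number of replication genes past an adjusted p of 0.05 (x axis) as higher (red, upper bar) or lower (blue, lower bar) on the Trib1 hi arrays, under each setting. As reported, 16 were higher and 3 lower, quantile normalization gave 29 and 3, and dividing arrays by their medians gave 0 and 1. Of all 12250 genes tested, these settings called 1363 and 2409, 3354 and 3346, and 181 and 2249.

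The other replication genes, a wider list of fork, chromatin and origin-firing factors, numbered 40. Of these 33 had a probe set and 32 were tested, and 7 were higher and 3 lower on the arrays labelled Trib1 hi, beside 11.1% and 19.7% of all genes, with a median log2 difference of 0.04. After quantile normalization 15 were higher and 7 lower, beside 27.4% and 27.3%, and with arrays divided by their medians 0 were higher. Rif1, a regulator of replication timing, averaged 2622 ± 138 and 1814 ± 35.7 (SD, n = 4) on the Trib1 hi and Trib1 null arrays and was 1.44-fold higher (adjusted p = 2.4e-05 in limma). Asf1b, a histone chaperone at the fork, averaged 4029.7 ± 601 and 6046 ± 475 and was 1.51-fold lower (adjusted p = 2.8e-05 in limma), a log2 difference of -0.59 ± 0.10 that lay within the range of the dap probe sets. The nuclease gene Exo1 and the origin-firing factor gene Mtbp had the largest log2 differences among the called genes, 1.22 ± 0.32 and 1.00 ± 0.36, at means of 569 and 239.9 for Exo1 and 546 and 264 for Mtbp. Both had arrays below 500 in each group, and with a floor of 500 neither was called.

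Among 17 tested genes of S-phase nucleotide supply and E2F control, 5 were higher and 3 lower on the arrays labelled Trib1 hi, beside 11.1% and 19.7% of all genes. After quantile normalization 8 were higher and 4 lower, beside 27.4% and 27.3%, with the E2f2 decrease kept, and in both fits the share that was lower was near that of all genes. E2f2 read 716, 583, 889 and 719.5 on Trib1 hi 1 to 4, against 1829.7, 1871, 1862 and 1886 on Trib1 null 1 to 4. E2f2, an activating E2F, had clearly separated groups and was 2.59-fold lower (log2 difference -1.37 ± 0.13, adjusted p = 1.3e-10 in limma), a larger difference than in the 4 dap probe sets. E2f1 averaged 299.5 ± 231 and 501 ± 57.7 (SD, n = 4) on the Trib1 hi and Trib1 null arrays and E2f3 576 ± 207 and 328 ± 102. E2f1 was called lower and E2f3 higher (adjusted p = 0.040 and 0.041 in limma), but both lay near 500 with overlap, E2f1 was not called after quantile normalization (0.46) and E2f3 not without Trib1 hi 3 (0.13). Dut, which removes dUTP from the nucleotide pool, averaged 9695 ± 1467 and 6477 ± 403 and was 1.48-fold higher (adjusted p = 1.4e-04 in limma).

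Of 11 checkpoint genes, 4 were higher and 2 lower, beside 11.1% and 19.7% of all genes, and after quantile normalization 6 were higher and 2 lower, beside 27.4% and 27.3%. Cdkn1b read 1139, 1277, 1512 and 1193 on Trib1 hi 1 to 4, against 2701, 2682, 2579 and 3023 on Trib1 null 1 to 4. Cdkn1b encodes p27, an inhibitor of cyclin-dependent kinases, and read lower on every Trib1 hi array, by 2.15-fold (log2 difference -1.11 ± 0.10, adjusted p = 2.3e-10 in limma). Cdkn1a, which encodes the related inhibitor p21, averaged 3676 ± 448 and 5132 ± 236 (SD, n = 4) on the Trib1 hi and Trib1 null arrays and was 1.40-fold lower (1.6e-04), a difference of -0.49 that is no larger than that of dap. The checkpoint clamp gene Rad1 averaged 852 ± 130.2 and 566 ± 48.3 and the kinase gene Chek1 948 ± 108 and 666 ± 127 on the Trib1 hi and Trib1 null arrays, log2 differences of 0.58 and 0.52 that passed (adjusted p = 0.0081 and 0.012 in limma). The Chek1 call was lost without Trib1 null 2 (adjusted p = 0.066 in limma) and with a floor of 500 (0.066), and it was made in 15 of 21 settings.

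Mitotic genes gave 7 higher and 2 lower of 19 tested, beside 11.1% and 19.7% of all genes, and 11 higher and 5 lower after quantile normalization, beside 27.4% and 27.3%. Mad2l1, of the spindle checkpoint, and Cdc20, its target, were 1.34-fold higher and 1.28-fold higher (adjusted p = 0.0032 and 0.0028 in limma). Bub1b, also of the spindle checkpoint, and Cenpf, of the kinetochore, were 1.41-fold lower and 1.33-fold lower (adjusted p = 0.0011 and 0.0021 in limma). Their log2 differences of -0.49 and -0.41 are no larger than those of dap. With a floor of 500 Mad2l1 was not called (0.075). Mki67, the proliferation marker, averaged 7056 ± 994 and 7493 ± 432 (SD, n = 4) on the Trib1 hi and Trib1 null arrays, a log2 difference of -0.10 ± 0.11 that did not pass on the deposited values (adjusted p = 0.59 in limma). Mki67 passed as lower after quantile normalization (-0.22, adjusted p = 3.5e-06 in limma), also with Trib1 hi 3 left out of it (2.4e-05). With arrays divided by their medians the log2 differences of Mad2l1, Cdc20, Dut, Rif1, Rad1, Chek1 and E2f3 turned to -0.44, -0.50, -0.29, -0.33, -0.28, -0.34 and -0.07.

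**Figure D5:**
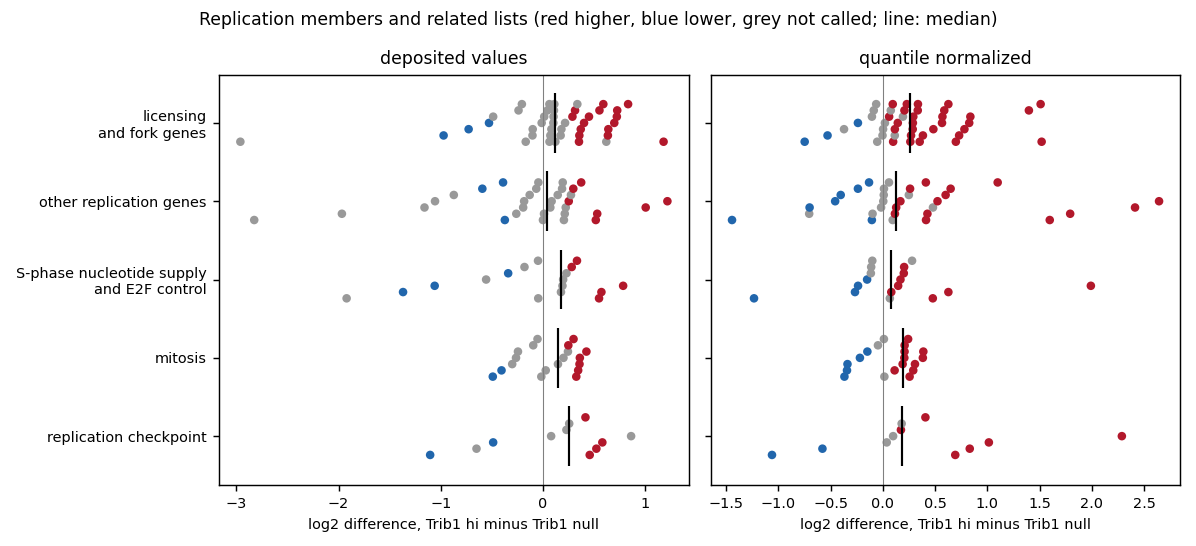
Log2 difference (Trib1 hi minus Trib1 null, x axis) of each tested gene of the licensing and fork genes and 4 related lists, on the deposited values (left) and after quantile normalization (right, with its own x range), with red for higher, blue for lower, grey for not called, and a line at each list's median. The median of the licensing and fork genes is 0.12 and 0.26, and all genes tested had medians of 0.04 and 0.01, and with arrays divided by their medians these became -0.74 and -0.81.

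E2F motifs stood in promoters of higher genes, of lower genes and of genes that did not pass. RefSeq promoter windows on GRCm38.p6, 250 bases before to 50 after the start, were matched by gene for 35 of the 44 genes (42 windows). An E2F motif (TTTGGCGC, TTTCGCGC or TTTCCCGC on either strand) stood in 15 of the 42 windows, or 35.7%, and in 606 of 32851 windows of all genes, or 1.84%. It stood in 4 of the 13 higher genes with a window, 2 of the 3 lower ones and 8 of the 18 that did not pass. CCAAT was in 54.8% of the windows of replication genes and 37.4% of all windows, the E-box CACGTG in 14.3% and 7.15%, and TTTGAA in 19.0% and 17.9%. The stretches below show the E2F motif in capitals in 3 higher genes (Cdt1, Cdc6 and Mcm7), in 1 lower gene (Lig1) and in 1 that did not pass (Mcm6).
Cdt1, chr8:122568035-122568064, plus strand: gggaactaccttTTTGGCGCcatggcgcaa
Cdc6, chr11:98908002-98908031, plus strand: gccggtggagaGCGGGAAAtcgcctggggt
Mcm7, chr5:138172030-138172059, minus strand: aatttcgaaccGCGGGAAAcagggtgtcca
Lig1, chr7:13278841-13278870, plus strand: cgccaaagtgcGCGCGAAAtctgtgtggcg
Mcm6, chr1:128359795-128359824, minus strand: gcgtatgctTTTGGCGCGAAAagtgcgtgc
The match of Cdt1 lies 33 bases after the start and that of Lig1 27 after it, while those of Cdc6 and Mcm7 lie 138 and 165 bases before it. The capitals of Mcm6 begin 110 bases before its start and hold overlapping matches on both strands, as in Mcm5, and the run of Mcm6 is the reverse complement of that of Mcm5. Of this pair, Mcm5 was lower and Mcm6 did not pass.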

How the data were processed

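The authors deposited a table of linear intensities (45141 probe sets, 8 arrays), made with MAS5 per the submitters' processing notes, which give no version. Per the labels' protocols, 100 ng of total RNA was labelled. Groups and replicate numbers came from the sample titles. Symbols came from the platform annotation, and each gene was read through the brightest of its probe sets with 1 symbol. limma 3.58.1 in R 4.3.3 (lmFit, eBayes with a trend) tested log2(intensity + 2.71), two-sided, over 12250 genes whose mean log2 value exceeded 3.01. The pseudocount is the 25th percentile of all values, and the filter the 40th percentile of the mean log2 values of the probe sets. The pseudocount shrinks differences of dim genes, which also depend on the scaling. From the deposited values to quantile normalization, Gins3 went from -2.96 to -0.37 and Orc1 from 0.62 to 1.40. Folds are ratios of geometric means after signals below 500 were set to 500, a floor taken from earlier work on these data, and are written "at least" where 1 group lay below it on some array. Members and lists were chosen with earlier results of these data known. Per-array values are given for members called in both fits (as deposited and quantile-normalized), without overlap or with an unstable call. Of the other lists, up to 4 called genes with the largest change are named, with Trib1, Hoxa9 and Mki67 whatever their result. The code was tested on simulated data. The 4 arrays per group limit the precision. Quantile normalization with Trib1 hi 3 left out was added after seeing the data. The labels do not say that the replicate numbers pair arrays, and the main fit used no pairing. Same-numbered arrays correlated in their deviations from the group means at -0.51, 0.49, -0.29 and 0.37, which cannot exclude a shared culture or batch.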

Additional observations from a re-analysis of the deposited data

Results flagged for a closer look

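In each label's 4 arrays, a gene was listed here where its highest or lowest array stood apart from the other 3 by a larger share of the whole range than Dixon's 95% critical value for 4 samples. Of 86 groups of 4 tested, 18 met this, and chance gives about 1 in 20. On Trib1 hi 3 there were 10, and it was the lowest of its label in 8 of them, with intensities of Cdc6 1918 (others 2109.5 to 2134), Cdt1 8205 (others 11282 to 11715), Gmnn 3822 (others 4894 to 5040.4), Dbf4 3453 (others 4446 to 4533), Gins4 2151 (others 2416 to 2419.7), Pold2 2271 (others 2653 to 2703), Rfc4 3238 (others 4132 to 4335) and Rpa2 1871 (others 2369 to 2389). It was the highest in Orc1 264 (others 8.67 to 10.3) and Gins3 388 (others 10.6 to 15.8), both dim. Trib1 hi 4 was the highest in Orc6 1713 (others 1663 to 1670.3). Among the Trib1 null arrays there were 7. Trib1 null 1 was the lowest in Cdt1 5762 (others 6547 to 6676), Mcm4 4540.2 (others 5189 to 5263) and Fen1 2205 (others 2539.6 to 2556), and the highest in Orc1 139 (others 5.50 to 6.29) and Pold1 917 (others 731 to 748). Trib1 null 2 was the lowest in Prim2 1279.7 (others 1491 to 1524) and Trib1 null 4 in Gins2 736 (others 849.9 to 859). Cdc6, Cdt1, Pold2, Rfc4 and Rpa2 stayed separated between the groups with these arrays included.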

How the results depend on the processing

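The 19 calls among the replication genes held under quantile normalization, a pseudocount of 16, restriction to genes over 500 and the replicate block. Counts of replication genes higher and lower were 16 and 3 as reported, 29 and 3 after quantile normalization, 27 and 3 after it with Trib1 hi 3 left out, 0 and 1 with arrays divided by their medians, 10 and 1 with a gene's probe sets averaged, 10 and 2 without the trend, and 26 and 9 with array weights. Of the 12250 genes tested, 1363 were higher and 2409 lower as reported, and 3354 and 3346 after quantile normalization. They were 3243 and 3230 after it with Trib1 hi 3 left out, and 181 and 2249 with arrays divided by their medians. Averaging probe sets gave 711 and 1285, no trend 914 and 1274, and array weights 2820 and 4900. Leaving out each array in turn gave 14 to 23 replication genes higher and 2 to 4 lower, the most without Trib1 hi 3 (23 and 4).

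Of the other replication genes, 7 were higher and 3 lower as reported, 15 and 7 after quantile normalization, 15 and 6 after it without Trib1 hi 3, 0 higher with equal medians, 0 with averaged probe sets, 4 without the trend, 15 and 11 with array weights, and 4 to 11 and 3 to 5 with 1 array left out (4 higher without Trib1 hi 1, Trib1 hi 4 or Trib1 null 4, and 11 and 5 without Trib1 hi 3). Over all genes 1363 were higher and 2409 lower as reported, 3354 higher after quantile normalization, 3243 after it without Trib1 hi 3, 181 with equal medians, 711 and 1285 with averaged probe sets, 2820 and 4900 with array weights, 1595 lower with a floor of 500, 1274 without the trend and 1379 without shared variance. With 1 array left out they were 1153 to 2103 and 1964 to 3768, the most (2103 and 3768) without Trib1 hi 3. The median log2 difference of the replication genes, 0.12 as reported, was 0.26 after quantile normalization, 0.26 after it without Trib1 hi 3, -0.74 with equal medians, 0.23 with array weights, and 0.10 to 0.25 with 1 array left out. The cause of these changes was not tested. Array weights gave Trib1 hi 3 a weight of 0.019.

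The replicate block, a term for the replicate number, left 16 replication genes higher and 3 lower and 1284 and 2346 of all genes, and changed no call of a replication gene. The labels do not say that these numbers pair the arrays.

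Signs turned in 64 values of single genes. With equal medians the log2 differences became Orc1 -0.13, Orc5 -0.41, Orc6 -0.79, Cdc6 -0.22, Cdt1 -0.14, Gmnn -0.76, Mcm2 -0.028, Mcm3 -0.57, Mcm4 -0.68, Mcm6 -0.74, Mcm7 -0.51, Dbf4 -0.51, Mcm10 -0.52, Cdc45 -0.16, Gins1 -0.13, Gins2 -0.79, Gins4 -0.64, Pola1 -0.75, Prim1 -0.85, Pold2 -0.55, Pole -0.78, Pcna -0.75, Rfc2 -0.46, Rfc4 -0.23, Rfc5 -0.49, Rpa1 -0.69, Rpa2 -0.31, Rpa3 -0.76, Fen1 -0.80, Timeless -0.82 and Tipin -0.27. After quantile normalization they became Mcm8 1.52, Pola2 0.19, Prim1 -0.054, Pold1 0.11, Rfc3 0.23 and Rpa3 -0.0037, and after it without Trib1 hi 3 Gmnn -0.0020, Mcm8 1.51, Pola2 0.26, Prim1 -0.053, Pold1 0.061 and Rfc3 0.20. With averaged probe sets they became Gins2 -0.091, Pola2 0.33, Pole2 0.20 and Rfc2 -0.35, and with array weights Gins2 -0.100 and Timeless -0.070. With 1 array left out, the genes whose sign turned ranged over -0.49 to 1.63 for Orc1, -1.37 to 0.26 for Mcm8, -0.042 to 0.16 for Gins2, -0.18 to 0.023 for Pola2, -0.038 to 0.088 for Prim1, -0.11 to 0.081 for Rfc3 and -0.061 to 0.14 for Timeless. Apart from equal medians and, for Rfc2, averaged probe sets, each was of a gene that was not called as reported. Signals below 500 follow the scaling of an array, which limits what Orc1, Mcm8, Gins3 and Cdc7 can show.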
